A study of Homo sapiens with 2 samples.

Results

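The 39 human HOX genes were examined in 2 lists of DNase I hypersensitive sites, 1 from the osteosarcoma cell line Saos-2 and 1 from the osteosarcoma cell line U2OS. The genes were all protein-coding genes of the RefSeq table with a symbol of HOXA, HOXB, HOXC or HOXD and a number, and they are 39 of 20037 protein-coding genes. Their 4 clusters with 500 kb on each side held 97 of 51556 Saos-2 hotspots and 159 of 63388 U2OS hotspots. Both lines are established human cell lines, profiled as 1 library each, and the labels name no treatment, so the lines differ in their origin and in nothing else that the labels record. Nuclei were digested with DNase I at 37 °C for 3 min, and regions dense in cuts were called as hotspots at a false discovery rate of 0.05. There was no replicate and no test between the lines: shares carry Wilson 95% intervals, which reflect counting error alone, and hotspots near each other are not independent. All positions are on hg38.

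HOX genes encode homeodomain transcription factors that specify position along the body axis and along the limbs. Genes at matching places in the 4 clusters are paralogues descended from 1 ancestral gene, numbered from 1 at the anterior end of the cluster to 13 at the posterior end, and cells of the mesenchyme, bone among them, keep a HOX pattern that reflects where in the body they arose. Silent HOX genes are usually held by Polycomb proteins and active ones by Trithorax proteins, and a DNase hotspot marks DNA that is open to the enzyme, without showing that a gene is transcribed.

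The clusters were taken from the first to the last protein-coding HOX gene. HOXA (11 genes, chromosome 7) spans 107 kb and HOXB (10 genes, chr17:48528526-48728750) spans 200 kb, and both are transcribed from the minus strand. HOXC (9 genes, chr12:53938831-54056030) spans 117 kb and HOXD (9 genes, chr2:176087487-176190907) spans 103 kb, and both are transcribed from the plus strand.

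Promoter sequence is shown for the HOX genes whose promoter window in the RefSeq table held bases of a U2OS hotspot, because these are the start sites that can be seen at base level. HOXA4 and the start shared by HOXC4 and HOXC5 had a start hotspot in U2OS only. HOXA11, HOXA13 and HOXD1 had one in both lines and were added after their values had been seen. Each sequence is the 250 bases upstream of the transcription start (RefSeq, GRCh38.p14), 5′ to 3′ on the gene's strand, with the bases inside the U2OS hotspot in capitals. HOXA4 is chr7:27130758-27131007, HOXA11 is chr7:27185233-27185482 and HOXA13 is chr7:27200092-27200341, all on the minus strand. HOXC4 with HOXC5 is chr12:54016638-54016887 and HOXD1 is chr2:176188418-176188667, both on the plus strand.
HOXA4: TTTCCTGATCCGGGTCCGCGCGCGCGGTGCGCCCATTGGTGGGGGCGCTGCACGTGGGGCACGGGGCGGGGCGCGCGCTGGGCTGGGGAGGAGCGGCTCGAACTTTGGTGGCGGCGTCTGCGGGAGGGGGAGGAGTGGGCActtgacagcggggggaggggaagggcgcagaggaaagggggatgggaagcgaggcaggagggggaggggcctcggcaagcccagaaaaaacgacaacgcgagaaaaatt
HOXC4 and HOXC5: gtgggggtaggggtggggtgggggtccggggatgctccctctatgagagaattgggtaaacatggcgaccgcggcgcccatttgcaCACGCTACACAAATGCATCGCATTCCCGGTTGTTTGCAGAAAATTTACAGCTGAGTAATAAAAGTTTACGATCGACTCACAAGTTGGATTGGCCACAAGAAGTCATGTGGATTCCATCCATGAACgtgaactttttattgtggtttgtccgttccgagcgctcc
HOXA11: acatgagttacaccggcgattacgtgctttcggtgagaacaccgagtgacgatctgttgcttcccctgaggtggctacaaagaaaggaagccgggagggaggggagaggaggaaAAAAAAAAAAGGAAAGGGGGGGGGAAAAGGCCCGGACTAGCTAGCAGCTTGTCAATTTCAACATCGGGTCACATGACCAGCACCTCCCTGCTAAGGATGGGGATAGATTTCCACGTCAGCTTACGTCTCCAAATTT
HOXA13: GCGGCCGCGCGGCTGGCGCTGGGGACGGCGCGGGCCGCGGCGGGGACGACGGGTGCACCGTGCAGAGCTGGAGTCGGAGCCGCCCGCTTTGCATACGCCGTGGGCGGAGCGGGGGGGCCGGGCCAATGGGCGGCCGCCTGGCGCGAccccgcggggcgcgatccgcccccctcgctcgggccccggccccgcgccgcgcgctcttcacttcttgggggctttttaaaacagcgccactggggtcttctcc
HOXD1: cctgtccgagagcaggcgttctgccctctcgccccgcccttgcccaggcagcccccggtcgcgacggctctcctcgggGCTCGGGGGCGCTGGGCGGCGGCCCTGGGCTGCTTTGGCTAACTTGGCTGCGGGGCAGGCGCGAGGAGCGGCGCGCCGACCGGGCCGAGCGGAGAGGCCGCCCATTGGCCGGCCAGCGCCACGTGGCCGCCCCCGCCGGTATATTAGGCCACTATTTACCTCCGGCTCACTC
In HOXA4 and HOXA13 the open bases were the distal part of the stretch, bases 1 to 141 and 1 to 146, and stopped short of the start. In HOXA11 and HOXD1 they reached up to the start and past it. In HOXC4 and HOXC5 they lay in the middle, at bases 87 to 211. Saos-2 hotspot bases lay at positions 100 to 213 of HOXA11 and 1 to 122 of HOXA13, and there were none in the other 3 windows.

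The sequences differed in composition as well as in the place of the hotspot. Over the whole window, which runs from 250 bases before to 50 after the start, GC content was 63.3% in HOXA4, 51.7% in HOXC4, 51.3% in HOXA11, 76.3% in HOXA13 and 74.3% in HOXD1. The 26 distinct windows of the 20 HOX genes in the promoter table had a median GC content of 58.0% and a median of 22.5 CpG dinucleotides, against 58.7% and 14 over all 34943 windows. The GC contents were therefore alike in the middle of the 2 sets, while the HOX windows held more CpG. The 21 HOX windows without U2OS bases had a median of 22 CpG.

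Short motifs were searched on both strands as descriptions of the sequence only. The CCAAT box (letters CCAAT) was in 17 of 26 HOX windows, 65.4% (46.2 to 80.6%), against 34.6% of all windows. The GC box (GGGCGG) was in 50% against 44.9%, and the TATA box (TATAAA) in 19.2% against 11.6%. The RUNX letters TGNGGT were in 42.3% against 43.2%, the PBX-HOX letters TGATNNAT in 11.5% against 7.42%, and the core of the CTCF motif in 15.4% against 10.6%. No HOX window held the AP-1 letters TGANTCA (0 of 26, upper limit 12.9%), which were in 7.72% of all windows. Among the sequences above, the CCAAT box lay inside the capitals in HOXA4 (bases 35 to 39), HOXA13 (123 to 127), HOXC4 (174 to 178) and HOXD1 (182 to 186). HOXC4 had a further CCAAT match at bases 51 to 55, outside the capitals. HOXA11 had no CCAAT letters, and its RUNX letters (67 to 72) and CTCF core (64 to 75) overlapped each other outside the capitals. HOX windows of neighbouring genes and of alternative starts are not independent, and a match is not a bound site.

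Both lines had hotspots in the HOX clusters, and U2OS had more of them. Saos-2 had 9 hotspots in the 528 kb of the 4 clusters and U2OS had 22. Covered bases numbered 1381 in Saos-2 and 4473 in U2OS. By cluster, Saos-2 had 3 hotspots in HOXA, 4 in HOXB, 1 in HOXC and 1 in HOXD, and U2OS had 8, 7, 5 and 2. U2OS was the higher of the lines in each cluster of the full lists. U2OS supplied 71.0% (53.4 to 83.9%) of the 31 cluster sites of both lists, 60.9% (54.4 to 67.0%) of the 225 flank sites and 55.1% of all hotspots in the lists. The number of reads behind each list is unknown, so a deeper U2OS library and more open U2OS chromatin cannot be told apart. With the U2OS list cut to the length of the Saos-2 list by significance, the clusters held 9 and 13 hotspots and the U2OS share was 59.1% (38.7 to 76.7%). HOXB then had fewer U2OS than Saos-2 hotspots. In the full lists the ratio of U2OS to Saos-2 hotspots was 1.19 on chromosome 7, 1.14 on chromosome 17, 1.24 on chromosome 12 and 1.33 on chromosome 2. Inside the clusters it was 2.44 in the full lists and 1.44 with equal lists. The chromosome ratios were not recomputed for equal lists.

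**Figure D1:**
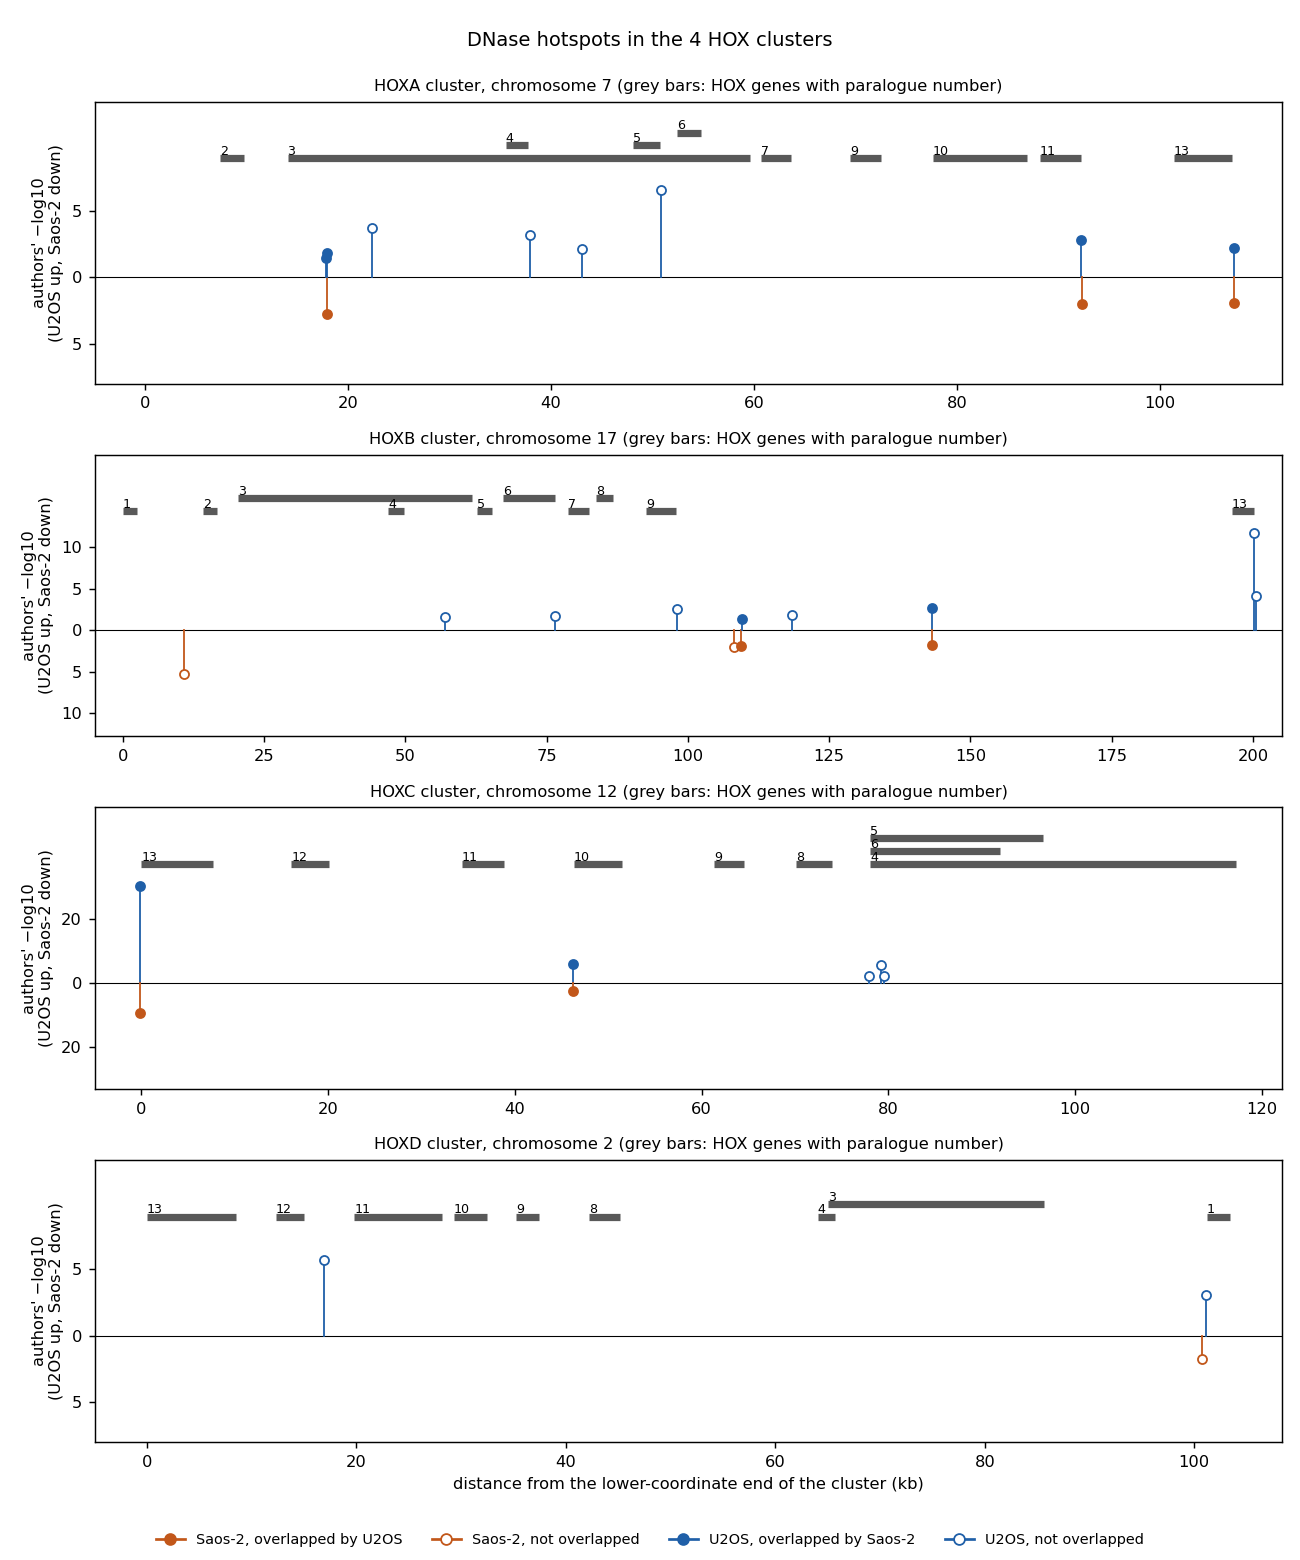
Hotspots of U2OS (upward) and Saos-2 (downward) along the 4 HOX clusters, for the genes and sites that the text gives by name or position. The x axis is the distance in kb from the lower-coordinate end of the cluster, the y axis the authors' −log10 significance (its range differs between the panels), grey bars are HOX genes with their paralogue number, and filled points are hotspots overlapped by the other line. Sites are spread along HOXA, HOXB and HOXC with gaps between them, while HOXD has 1 U2OS site near its posterior end and 2 sites, 1 per line, at HOXD1. The HOXA13 pair, the Saos-2 site at HOXC13 and the second U2OS site at HOXB13 lie just outside the cluster span.

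The cluster hotspots were of low significance within their own lists. Over the deposited −log10 significance the median was 2.08 for the 9 Saos-2 cluster sites and 2.71 for the 22 U2OS cluster sites, against 4.05 and 4.60 for the whole lists. Of the cluster sites, 1 of 9 in Saos-2 and 7 of 22 in U2OS lay above the median of their list. In the flanks 45 of 88 and 69 of 137 did, which is close to the middle of the lists. The Saos-2 site at HOXC13 (9.50), 3 bp outside its cluster, is among the flank sites, while its U2OS partner is a cluster site. The sites in the clusters were also narrow, and their median width was 114 bp (Saos-2) and 179 bp (U2OS), against 238 and 248 bp over the lists.

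**Figure D2:**
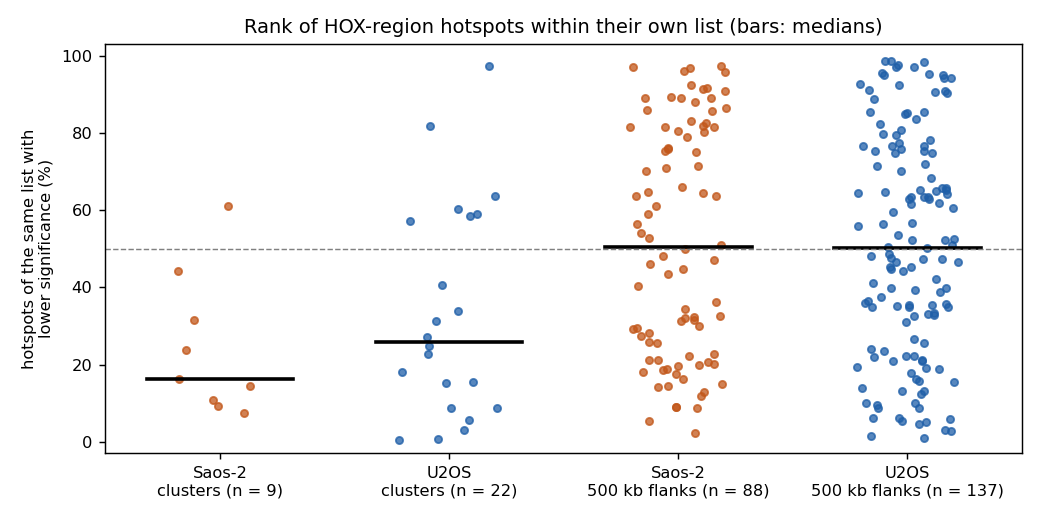
Rank of each HOX-region hotspot in its own list, as the percentage of hotspots of that list with lower significance (y axis), for Saos-2 and U2OS in the clusters and in the 500 kb flanks. Points are hotspots, black bars are medians and the dashed line is the middle of a list. The medians are 16.3 and 26.0% in the clusters and 50.5 and 50.2% in the flanks, and 1 U2OS cluster site, at HOXC13, lies at 97.3%.

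Overlap between the lines was counted at 1 bp or more. In the clusters 6 of 9 Saos-2 hotspots overlapped a U2OS hotspot, 66.7% (35.4 to 87.9%), where 58.1% of the whole Saos-2 list did. In U2OS 8 of 22 overlapped, 36.4% (19.7 to 57.0%), where 46.9% of the whole list did. Both intervals include the share of the whole list. Hotspots that overlap were then joined into places, which gave 24 places inside the clusters: 7 with both lines, 3 with Saos-2 only and 14 with U2OS only.

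In the HOXA cluster every Saos-2 hotspot had a U2OS partner, and the added U2OS sites lay from HOXA3 to HOXA5. Inside the long span of HOXA3 a Saos-2 site, chr7:27110773-27110960 (2.80), overlapped 2 small U2OS sites, chr7:27110753-27110814 (1.43) and chr7:27110834-27110911 (1.85). This place is 2.88 kb from the nearest HOXA3 start in Saos-2 and 2.93 kb in U2OS.

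The next 4 HOXA sites were in U2OS only. The site chr7:27115219-27115494 (3.70) was in the HOXA3 span, 1.38 kb from a HOXA3 start. Further on, chr7:27130867-27131042 (3.21) lay 110 bp from the start of HOXA4, and the capitals printed above for HOXA4 are the part of this site that lies within the printed stretch. A weaker site, chr7:27135985-27136113 (2.16), lay 5.23 kb from the HOXA4 start, between HOXA4 and HOXA5. At HOXA5, which acts in lung and rib development, chr7:27143676-27143919 had 6.55, the highest value of the cluster in either line. The nearest Saos-2 site was 32.7 kb from this U2OS site. HOXA6, HOXA7, HOXA9 and HOXA10 all lay in the following 41.3 kb without a hotspot in either line (chr7:27143920-27185186).

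At the posterior end of HOXA both lines had sites again. HOXA11, a gene of the forearm and of the uterus, had the U2OS site chr7:27185187-27185368 (2.78) and the Saos-2 site chr7:27185270-27185383 (2.01), which shared 99 bp between HOXA11 and HOXA11-AS. HOXA13, a gene of the hand, foot and genital tract, had the U2OS site chr7:27200196-27200352 (2.17) and the Saos-2 site chr7:27200220-27200368 (1.91). The HOXA13 sites lie 105 and 129 bp outside the gene, between it and the lncRNA HOTTIP, and so are counted in the flank.

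The HOXB cluster had no start hotspot in Saos-2 and mostly weak sites in both lines. The Saos-2 site of highest significance inside any cluster span, chr17:48539208-48539524 (5.24), lay between HOXB1 and HOXB2, 3.13 kb from HOXB2. The nearest U2OS site was 33.1 kb away. The Saos-2 site at HOXC13 was higher (9.50) but ended 3 bp outside its cluster. In U2OS only there were chr17:48585490-48585579 (1.58) in the HOXB3 span, chr17:48604925-48605037 (1.70) at the upper end of HOXB6 and chr17:48626485-48626727 (2.52), 127 bp above HOXB9. None of these 3 was above the median of the U2OS list.

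Between HOXB9 and HOXB13 the cluster has a long stretch without HOX genes, which held sites of both lines. A Saos-2 site, chr17:48636608-48636713 (2.08), had no overlap. The Saos-2 site chr17:48637944-48638051 (1.87) and the U2OS site chr17:48638006-48638062 (1.37) shared 46 bp, and both lie in the lncRNA LINC03057. In LINC02086 lay the U2OS-only site chr17:48646854-48646973 (1.85). The last shared pair, U2OS chr17:48671698-48671870 (2.64) and Saos-2 chr17:48671757-48671852 (1.80), was 45.3 and 45.4 kb from HOXB9, also in LINC02086. A stretch of 56.7 kb without a hotspot followed (chr17:48671871-48728597), which takes in most of HOXB13 and ends close to its upper end.

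HOXB13, a posterior gene best known from the prostate, had the strongest site of the HOXB cluster. The U2OS site chr17:48728598-48728905 covered the upper end of the gene with a −log10 of 11.7, above 81.7% of the U2OS list. A second U2OS site, chr17:48728933-48729205 (4.10), lay 183 bp above the gene. The nearest Saos-2 site to either end of HOXB13 was 52.9 kb away.

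In the HOXC cluster the posterior genes HOXC13 and HOXC10 had sites in both lines, and the central genes HOXC4, HOXC5 and HOXC6 in U2OS only. At HOXC13, a gene of hair and nail, the U2OS site chr12:53938419-53938902 had a −log10 of 30.4, the highest of any cluster site. The Saos-2 site there, chr12:53938469-53938828 (9.50), lies wholly inside the U2OS site and ends 3 bp below the gene, so it is counted in the flank. Both sites are also within the lncRNA HOXC13-AS. At HOXC10, which acts in the lumbar spine and hindlimb, the U2OS site chr12:53984914-53985160 (5.99) contained the Saos-2 site chr12:53984976-53985125 (2.41), and both overlapped HOXC-AS3. HOXC11 and HOXC12 lay between these 2 places in 46.0 kb without a site (chr12:53938903-53984913).

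HOXC4, HOXC5 and HOXC6 share 1 start in the RefSeq table, so their sites are not 3 independent observations. U2OS had chr12:54016724-54016848 (2.14) 40 bp upstream of that start, chr12:54017870-54018299 (5.75) 982 bp downstream of it and chr12:54018310-54018437 (2.28) just beyond. The second of these was the widest and strongest. The nearest Saos-2 site to the shared start was 31.8 kb away, at HOXC10. HOXC8 and HOXC9 had no site within 1 kb in either line.

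HOXD had the fewest sites. A U2OS site, chr2:176104230-176104539 (5.71), lay between HOXD12 and HOXD11, 2.74 kb from the HOXD11 start, with no Saos-2 site for 83.7 kb. At HOXD1 the Saos-2 site chr2:176188200-176188253 (1.74, 54 bp) and the U2OS site chr2:176188496-176188677 (3.04) were both within 1 kb of the start but did not overlap, with 243 bp between them. The 83.7 kb between these places held no hotspot in either line (chr2:176104540-176188199), and HOXD3, HOXD4, HOXD8, HOXD9, HOXD10 and HOXD11 lie wholly within it. HOXD13, a digit gene, had its nearest U2OS site 11.5 kb from the start and its nearest Saos-2 site 90.2 kb away.

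Gene starts were then read for all 39 genes, with a hotspot within 1 kb of the start counted as a start hotspot. For the 20 genes in the promoter table the start is the listed transcription start, and for the other 19 either end of the gene was allowed. Taking for those 19 the end that the strand of the cluster gives, an alternative added after the data had been seen, left the class of every one of the 39 genes as it was. In Saos-2 6 of 39 HOX genes had a start hotspot, 15.4% (7.25 to 29.7%), where 48.1% of all protein-coding genes did. In U2OS 14 of 39 did, 35.9% (22.7 to 51.6%), where 53.5% of all protein-coding genes did. Both intervals lie below the share of all genes, but the either-end rule applies to more of the HOX genes than of all genes. Within the 20 HOX genes with a listed start the shares were 15% (5.24 to 36.0%) in Saos-2 and 30% (14.5 to 51.9%) in U2OS, against 51.1% and 55.9% of all genes with a listed start. Within the 19 genes read at either end they were 15.8% (5.52 to 37.6%) and 42.1% (23.1 to 63.7%), against 36.7% and 44.3% of all genes read in that way, and both of these intervals include the share of all genes.

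Among the 39 genes, 6 had a start hotspot in both lines, 8 in U2OS only and 25 in neither, and there was none (0) in Saos-2 only. Over all protein-coding genes these classes held 43.3%, 10.1%, 41.8% and 4.79%, and over the HOX genes 15.4%, 20.5%, 64.1% and 0%. Both lines had HOXA11, HOXA13, HOXC10, HOXC13 and HOXD1, among others. U2OS only had HOXA4, HOXA5, HOXB6, HOXB9, HOXB13 and, through their shared start, HOXC4, HOXC5 and HOXC6. The genes in neither were HOXA2, HOXA3, HOXA6, HOXA7, HOXA9 and HOXA10, then HOXB1, HOXB2, HOXB3, HOXB4, HOXB5, HOXB7 and HOXB8, then HOXC8, HOXC9, HOXC11 and HOXC12, and last HOXD3, HOXD4, HOXD8, HOXD9, HOXD10, HOXD11, HOXD12 and HOXD13.

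These classes depended in part on weak sites. With the U2OS list cut to the Saos-2 length, HOXA13 was in Saos-2 only and HOXB6 was in neither, which left 12 U2OS genes. Over all protein-coding genes that cut gave 49.3% in U2OS, 6.62% in Saos-2 only and 44.0% in neither. In the more significant 50% of each list 1 HOX gene, HOXC13, had a start hotspot in Saos-2, and 8 had one in U2OS, among them HOXA5, HOXB13, HOXC4, HOXC5, HOXC6, HOXC10 and HOXC13. HOXC4, HOXC5 and HOXC6 were counted there through 1 site, 982 bp from their shared start. All protein-coding genes fell in the same setting to 34.8% in Saos-2 and 39.3% in U2OS.

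Read by paralogue number, the central genes had no start hotspot in Saos-2. Of 8 anterior genes (groups 1 to 3) 2 had a start hotspot in both lines, HOXD1 among them. Of 15 central genes (groups 4 to 8) none had one in Saos-2, with an upper limit of 20.4%, and 6 had one in U2OS, at 4 distinct starts. Of 16 posterior genes (groups 9 to 13) 4 had one in Saos-2 and 6 in U2OS. The classes are small and their intervals overlap: in U2OS they were 25.0% (7.15 to 59.1%), 40% (19.8 to 64.3%) and 37.5% (18.5 to 61.4%).

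No paralogue group had a start hotspot at every member in either line. In group 1 HOXD1 had a start hotspot in both lines and HOXB1 in neither. In group 13 HOXA13 and HOXC13 had them in both lines, HOXB13 in U2OS only and HOXD13 in neither. Groups 4, 5 and 6 each had 2 U2OS-only members: HOXA4 and HOXC4, HOXA5 and HOXC5, and HOXB6 and HOXC6. The HOXC members of these groups share 1 start and the same sites, so they are not independent observations. Groups 2, 3, 7, 8 and 12 had no start hotspot in either line.

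Assigning each cluster hotspot once, to the nearest HOX gene span, again left the central genes without a Saos-2 site. Saos-2 had 4 sites nearest to anterior, 0 to central and 5 to posterior genes, and U2OS had 8, 5 and 9. Nearest did not always mean close. HOXB9 was assigned 3 Saos-2 sites, 10.25 to 45.4 kb away, and 4 U2OS sites, 127 bp to 45.3 kb away. Most of these lay in the stretch without HOX genes above HOXB9. The Saos-2 site assigned to HOXB2 lay 3.13 kb from it. Per gene, U2OS had 1 site nearest to anterior, 0.33 to central and 0.56 to posterior genes. This order differed from that of the U2OS start hotspots, where the anterior share was the lowest. Assigned to the nearest start instead, the counts were 4, 0 and 5 for Saos-2 and 6, 7 and 9 for U2OS. The shift between anterior and central U2OS sites comes from the HOXA3 span, which runs across HOXA4 and HOXA5.

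Other families of developmental transcription factors also had fewer start hotspots than all genes in most cases. Of 53 SOX, T-box, PAX, GATA and sine oculis-type genes 18 had a start hotspot in Saos-2 (34.0%, 22.7 to 47.4%) and 21 in U2OS (39.6%, 27.6 to 53.1%). Of 52 forkhead genes 17 (32.7%, 21.5 to 46.2%) and 19 (36.5%, 24.8 to 50.1%) did. Among 8 DLX and MSX genes, homeobox genes of the skull and limb, the order of the lines was opposite to that of the HOX genes, with 6 in Saos-2 (75%, 40.9 to 92.9%) and 3 in U2OS (37.5%, 13.7 to 69.4%). In U2OS the HOX share of 35.9% lay within the intervals of these families, and in Saos-2 the HOX share of 15.4% lay below the intervals of all 3. The HOX interval in Saos-2 (7.25 to 29.7%) overlapped the intervals of the forkhead genes and of the SOX to sine oculis-type genes. It lay below that of the DLX and MSX genes.

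Listed non-coding genes of the clusters were read at both ends. Of 23 listed lncRNA and miRNA genes 6 had a hotspot within 1 kb of an end in both lines and 17 in neither. Among all 20216 such genes 15.3% had one in both lines and 72.7% in neither. Among the 6 were HOTTIP, HOXA11-AS, HOXC-AS3, HOXC13-AS and HAGLR, and each of these shares its site with a HOX gene already described, namely HOXA13, HOXA11, HOXC10, HOXC13 and HOXD1. HOTAIR, a lncRNA of the HOXC cluster, had no hotspot at its ends or in its span (chr12:53962312-53974954) in either line. The miRNA genes MIR10A, MIR10B, MIR196A1, MIR196A2, MIR196B and MIR615, whose products target HOX transcripts in several cases, had none within 1 kb either. The list did not hold every non-coding gene of the clusters. Among those left out, HOXBLINC and LINC03057 had a U2OS site within 1 kb of an end. MIR7704, beside HOXD1, had the sites of both lines described there.

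The flanks hold the distal sites, some of which lie in the gene deserts known to carry HOX enhancers. Over the 8 flanks Saos-2 had 88 hotspots and U2OS 137, or 2.20 and 3.43 per 100 kb, against 1.70 and 4.17 per 100 kb inside the clusters. In these counts Saos-2 sites were sparser inside the clusters than beside them, and the order in U2OS was the opposite. That order in U2OS turned with equal lists, where U2OS had 2.46 per 100 kb inside the clusters and 2.85 in the flanks. The Saos-2 order rests on 9 cluster sites and on where the spans end. Saos-2 sites 3 bp from HOXC13 and 129 bp from HOXA13 were counted in the flanks. Clusters widened by 10 kb held 11 Saos-2 hotspots. Of the flank sites 65 of 88 Saos-2 hotspots (73.9%, 63.8 to 81.9%) and 62 of 137 U2OS hotspots (45.3%, 37.2 to 53.6%) overlapped the other line. The Saos-2 interval lies above the 58.1% of the whole list, and the U2OS interval includes the 46.9% of its list. Most flank sites were away from the ends of protein-coding genes, 61 of 88 in Saos-2 and 107 of 137 in U2OS. Of these distal sites 42 Saos-2 and 41 U2OS hotspots overlapped the other line. No share over the whole lists stands beside these counts of distal sites, so they do not set the HOX flanks apart.

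**Figure D3:**
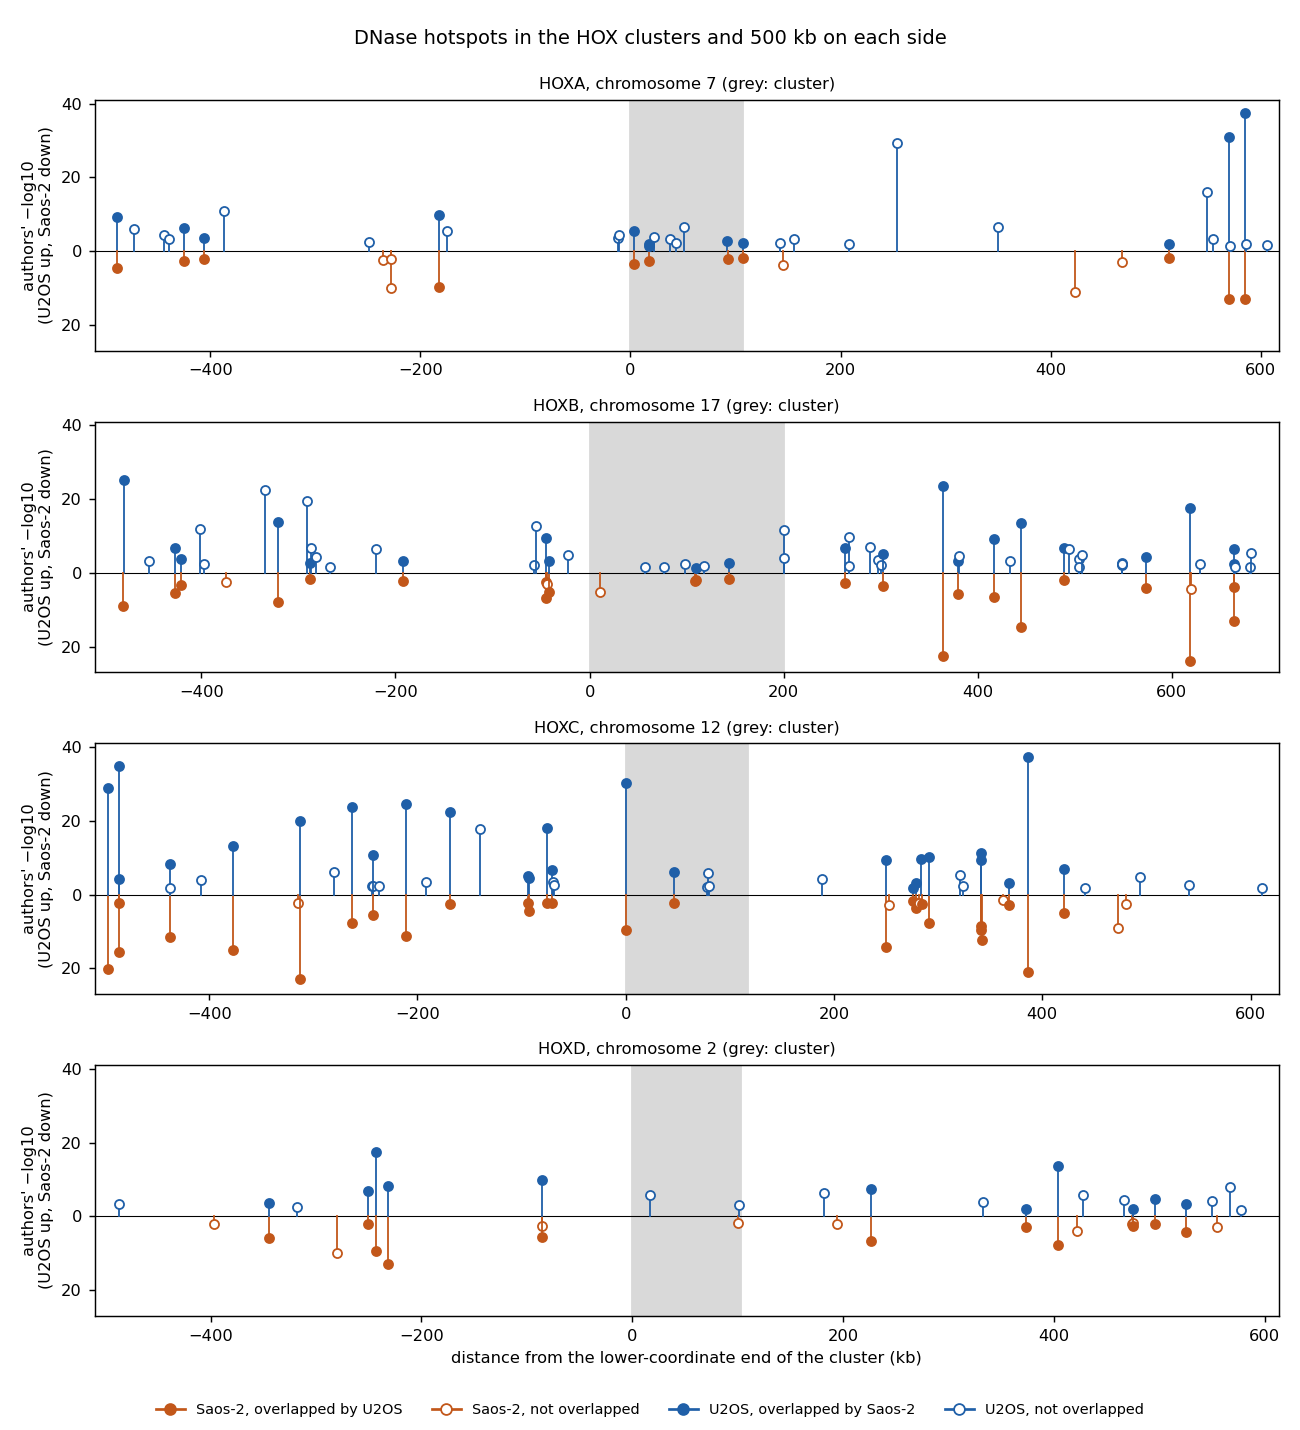
Hotspots of U2OS (upward) and Saos-2 (downward) in the 4 HOX clusters (grey) and 500 kb on each side. The x axis is the distance in kb from the lower-coordinate end of the cluster, the y axis the authors' −log10 significance, and filled points are hotspots overlapped by the other line. Apart from the U2OS site at HOXC13 (30.4), the cluster points reach at most 11.7, and a tall U2OS point without a Saos-2 partner, at a −log10 of 29.3, stands 147 kb above HOXA13.

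Below HOXA lie SKAP2 and a stretch without hotspots. There were 7 Saos-2 and 12 U2OS hotspots, and the nearest Saos-2 site, chr7:26910260-26910614 (9.60, overlapped), was 182 kb from the cluster. U2OS had nearer sites, the first at chr7:27082291-27082500 (4.45), 10.5 kb from the cluster and without overlap. SKAP2, an adaptor protein gene, differed in place between the lines. Saos-2 had the sites chr7:26864484-26865011 (10.1) and chr7:26865014-26865160 (2.0) at its upper end, and U2OS had chr7:26653751-26653937 (3.31) at its lower end. Inside SKAP2, Saos-2 alone had chr7:26857572-26857805 (2.29) and U2OS alone had chr7:26705633-26705918 (10.8), 387 kb from the cluster. A further U2OS-only site, chr7:26620403-26620650 (6.0), was 472 kb away.

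Above HOXA there were 7 Saos-2 and 14 U2OS hotspots, and this flank held the strongest U2OS-only site near any cluster. That site, chr7:27346856-27347320, had a −log10 of 29.3, above 97.0% of the U2OS list, and lay 147 kb from HOXA13. The nearest Saos-2 site was 109 kb from it. Another U2OS-only site, chr7:27641170-27641582 (15.9), lay in HIBADH, 441 kb away. Saos-2 alone had chr7:27515999-27516568 (11.2), 316 kb from HOXA13, and chr7:27237801-27238001 (3.74), 37.7 kb away. EVX1, a homeobox gene next to HOXA13, had no hotspot in either line. The highest values of this flank were at sites of both lines near HIBADH, up to 37.6 in U2OS and 13.1 in Saos-2.

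Below HOXB the U2OS-only sites of highest significance were inside SKAP1, a T cell adaptor gene. There were 11 Saos-2 and 20 U2OS hotspots, and SKAP1 held 4 and 9 of them, none at its ends. The U2OS sites chr17:48194043-48194609 (22.5) and chr17:48236683-48237131 (19.5) had no overlap and were 334 and 291 kb from HOXB1. Nearest to the cluster were the U2OS-only site chr17:48505904-48506135 (4.71), at 22.4 kb, and the overlapped Saos-2 site chr17:48486664-48486920 (5.22), at 41.6 kb. The Saos-2 sites without overlap, chr17:48484976-48485160 (3.05) and chr17:48153783-48153922 (2.36), were below the median of their list.

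The upper flank of HOXB had the largest difference in number of the 8 flanks, 12 Saos-2 against 30 U2OS hotspots. The U2OS share of these was 71.4% (56.4 to 82.8%), and 11 of the 12 Saos-2 sites were overlapped. The flank was picked for its difference, and the interval makes no allowance for that choice. The overlapped Saos-2 site nearest to the cluster was chr17:48791139-48791283 (2.82), 62.4 kb from HOXB13. The U2OS-only sites chr17:48795458-48795754 (9.73) and chr17:48817009-48817319 (6.93) lay in TTLL6, at 66.7 and 88.3 kb. The 1 Saos-2 site without overlap, chr17:49148295-49148495 (4.31), was 950 bp from a U2OS site. PRAC1 and PRAC2, small genes just below HOXB13 and so inside the cluster span, had no hotspot in either line.

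Below HOXC the lines shared most sites. There were 16 Saos-2 hotspots, of which 15 were overlapped, and 24 U2OS hotspots, of which 14 were. The shared sites included CALCOCO1, a neighbouring gene, with 11.3 in Saos-2 and 24.4 in U2OS. In U2OS only, chr12:53798570-53798968 (17.8) lay 140 kb from HOXC13 and chr12:53659011-53659289 (6.21) lay 280 kb away. The nearest U2OS site below the cluster was chr12:53869603-53869733 (2.57), at 69.1 kb. The Saos-2 site without overlap, chr12:53624147-53624231 (2.27), was in ATF7.

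Above HOXC the counts were close, with 16 Saos-2 and 17 U2OS hotspots. The nearest U2OS site, chr12:54127031-54127239 (4.23), lay in the lncRNA LINC02381, 71.0 kb above HOXC4, without overlap. The nearest Saos-2 site, chr12:54188869-54189223 (14.3), was overlapped and lay at SMUG1, a DNA repair gene, 133 kb away. Saos-2 alone had chr12:54411415-54411769 (9.15) in ITGA5, the gene of a fibronectin receptor subunit, and chr12:54191627-54191804 (2.71). U2OS alone had chr12:54259536-54259774 (5.35) in CBX5 and chr12:54432298-54432637 (4.88).

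The HOXD flanks, which include known limb enhancer deserts, were nearly balanced. Below HOXD, Saos-2 had 8 and U2OS 7 hotspots, the only flank with more in Saos-2. Nearest to the cluster was a shared site at LNPK, chr2:176002167-176002490 (5.67) in Saos-2 and chr2:176002179-176002496 (9.96) in U2OS, 85.0 kb from HOXD13. Saos-2 alone had chr2:175806965-175807336 (9.85), 280 kb away, and chr2:176001523-176001721 (2.51) in LNPK. The U2OS-only sites, chr2:175600066-175600271 (3.27) and chr2:175769277-175769447 (2.60), were both below the median of their list. EVX2, the gene next to HOXD13, had no hotspot in either line.

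Above HOXD there were 11 Saos-2 and 13 U2OS hotspots. MTX2, a mitochondrial gene, had a U2OS-only site at its lower end, chr2:176269262-176269573 (6.40), 78.4 kb from HOXD1. A Saos-2-only site, chr2:176281404-176281545 (2.19), lay inside the same gene. Further out were the Saos-2-only sites chr2:176509085-176509341 (3.89) and chr2:176642142-176642403 (2.96) and the U2OS-only site chr2:176653933-176654213 (7.90). The last 2 are both in LINC01117, 451 and 463 kb from HOXD1.

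Genes that act with or on HOX genes were read by the same rule. Of 40 listed genes 24 had a start hotspot in each of the lines, 11 had none, and of the other 5 genes 2 had one in U2OS only and 3 in Saos-2 only. For comparison, 6 of the 39 HOX genes and 43.3% of all protein-coding genes had one in both lines. All 5 genes of chromatin architecture (CTCF, RAD21, SMC1A, SMC3 and STAG2) and 6 of 7 Trithorax genes had one in both lines. Of 13 Polycomb genes 9 did, among them EZH2 (5.59 in Saos-2 and 3.69 in U2OS), the methyltransferase of histone H3 lysine 27. BMI1, a Polycomb gene, and KDM6B, which removes the same mark, had a start hotspot in Saos-2 only, at 1.77 and 1.87.

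Among the partners of HOX proteins 3 of 9 had a start hotspot in both lines. Of these TALE homeobox genes, whose products bind DNA together with HOX proteins, MEIS1 and PKNOX1 were among the 3. MEIS1 had a −log10 of 6.92 in Saos-2 and 8.36 in U2OS. PBX2 had one in Saos-2 only (3.68), PBX4 in U2OS only (2.08), and MEIS2, MEIS3, PBX3 and PKNOX2 in neither. Of the 6 ParaHox genes, the sister group of the HOX genes, GSX1 had one in both lines and GSX2 in U2OS only, and CDX1, CDX2, CDX4 and PDX1 had none.

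Markers of cell type were read in the same way as a check of the labels. Of 9 osteoblast markers BGLAP, RUNX2 and SPARC had a start hotspot in both lines, ALPL in Saos-2 only, COL1A1 in U2OS only, and COL1A2, IBSP, SP7 and SPP1 in neither. RUNX2 had a −log10 of 12.5 in Saos-2 and 1.59 in U2OS. Some markers of other tissues also had start hotspots: KRT8 (epithelium), SPI1 and CD3E (blood) and APOA1 (liver) in both lines and KRT18 in U2OS only. CDH1, EPCAM, PTPRC, ALB, NEUROD1 and SOX10 had none. The 3 of 9 osteoblast markers in both lines compare with 43.3% of all protein-coding genes, so these markers did not settle the labels. The part of other cell types in the HOX sites was not tested.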

How the data were processed

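DNase-seq hotspots of Saos-2 and U2OS, 1 library per line, were used as deposited. Per the submitters' processing notes, reads were trimmed with Trimmomatic 0.38 and aligned with BWA 0.7.15 to hg38. The hotspot caller, read filters and blacklist are not given in the sources used here. A false discovery rate of 0.05 stands in the names of the deposited files. The deposited −log10 value of each hotspot was taken as its significance from its range (1.30 to 100), since the lists have no header; it ranks hotspots within a list. The deposited score differed from 10 times that value by at most 0.5 and was not used further. Hotspots were called per library, and depth is unknown.

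The 39 HOX genes, the other lists and the rules were chosen with earlier results of these data known. Gene spans, promoter windows and sequences came from RefSeq tables on GRCh38.p14. The promoter table holds starts for 15843 of 20037 protein-coding genes and for 20 of 39 HOX genes; for the others a hotspot within 1 kb of either end was counted. An overlap of 1 bp or more counted as shared, and coordinates are 1-based. Intervals are Wilson 95% intervals. Named were all HOX genes with a start hotspot in only 1 line; per cluster the 3 most significant sites per line and those without overlap; and per flank the site nearest to the cluster and the 2 most significant sites without overlap, per line. Other sites and genes were named after their values had been seen. Alternatives were merging of hotspots less than 150 bp apart, equal lists, the top 50% of each list, clusters widened by 10 kb, flanks of 200 kb and 1 Mb, start windows of 500 bp and 2.5 kb, overlap of 50% of both hotspots and assignment by start. The 2 other definitions of a gene start were added after seeing the data. Some HOX, cofactor and marker genes are not reported here. Counting was tested on simulated lists. Tools were Python 3.11.15, pandas 2.3.3, numpy 2.4.6, scipy 1.17.1 and matplotlib 3.10.9.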

Additional observations from a re-analysis of the deposited data

How the results depend on the processing

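No paired analysis was possible because each line was 1 library, which also left no replicate to leave out. Of 86 recomputed values 67 stayed within 1.5-fold of the value as reported or, for shares, within its interval, and 19 moved. With equal lists the clusters held 13 U2OS hotspots, 1 HOX gene had a start hotspot in Saos-2 only, anterior and central U2OS sites fell to 4 and 2, and among the 40 cofactors and regulators 1 was in U2OS only and 5 in Saos-2 only. In the top 50% of each list the clusters held 1 Saos-2 and 7 U2OS hotspots, of which 0% (0 of 1) and 14.3% (1 of 7) were overlapped. The flanks then held 45 and 69, and start hotspots were at 1 HOX gene in Saos-2, 8 in U2OS and 1 in both. The Saos-2 site at HOXC13, which overlaps a U2OS cluster site, was counted among the flank sites. These 2 settings remove weak hotspots by construction, and most cluster sites are weak. Flanks of 200 kb held 29 Saos-2 and 44 U2OS hotspots and flanks of 1 Mb held 175 and 262, since their length differs. Over the 4 clusters together, and over the flanks together, U2OS had more hotspots than Saos-2 in each of these settings. In the HOXB cluster alone it did not with equal lists or in the top 50%. Depth is unknown and limits what the absence of a hotspot shows.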
